A study of Mus musculus with 4 samples.

Results

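The 10 genes described here encode transcriptional regulators that drive the genes of oxidative metabolism: the coactivators Ppargc1a, Ppargc1b and Perm1, the nuclear receptors Esrra, Esrrb, Esrrg and Ppara, and the DNA-binding factors Nrf1, Gabpa and Nfe2l2. They were chosen by name for their known function, and all 10 of them were found among the 15746 genes of the deposited table. Their RNA was compared between the mitochondrial fraction and the rest fraction of adult mouse heart, with 2 libraries of each. All 4 libraries came from wild-type (WT) mice, and the labels name no treatment other than the fraction and no age in numbers. The rest fraction was the pellet of cell debris from a low-speed spin of the homogenate, a pellet that also takes up nuclei and unbroken cells. The mitochondrial fraction was pelleted from the supernatant, and the methods describe digitonin (a detergent), RNase A and a shortened RNA fragmentation for mitochondrial samples, which cannot be told apart from the fraction itself. The labels number the libraries of each fraction but do not say whether they came from separate animals, so that the p-values measure the spread between these libraries, which may be technical.

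Mitochondria keep a small genome of their own, and nearly all of their proteins are encoded in the nucleus. The coactivators PGC-1α (Ppargc1a) and PGC-1β (Ppargc1b) bind no DNA themselves and act through estrogen-related receptors (ERRs), PPARα, NRF1 and the GABP complex, which sit on the promoters of respiratory chain, fatty acid oxidation and mitochondrial transcription genes. The heart, which beats on fatty acid oxidation, is one of the tissues in which this network is most studied. The factors work in the nucleus, and their mRNAs are read by ribosomes in the cytosol.

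Promoter sequences of 300 bases (250 before to 50 after the transcription start, from RefSeq on GRCm38.p6) are shown for Esrra, Ppara and Nfe2l2, whose windows held a motif named after NRF1 or the antioxidant response, and for Gabpa, whose window overlapped a neighbouring promoter. The Esrrg window that also held a motif belongs to an alternative start and is not shown. Of the 10 regulators, 9 had a window in the RefSeq promoter table used, with 14 windows in all. The NRF1 core GCGCATGC, searched on both strands, was found in 2 of these windows, those of Esrra and Ppara, against 2.71% of all 32851 windows. The antioxidant element core TGACNNNGC, where N is any base, was found in 2 windows, of Nfe2l2 and of 1 of the 4 Esrrg starts, against 12.4% of all windows. The ERR element TCAAGGTCA, the ETS core CCGGAAGT that GABP binds and the cyclic AMP element TGACGTCA were found in 0 of the 14 windows, against 0.423%, 3.89% and 1.79% of all windows. These matches describe letters in a window, not bound sites. In the sequences below, written 5′ to 3′ on the strand of the gene, capitals mark the NRF1 core in Esrra (chr19:6921759-6922058, minus strand, from base 217 of the window, reading on the opposite strand) and in Ppara (chr15:85735526-85735825, plus strand, from base 220, where matches on both strands overlap). Capitals mark the antioxidant element core in Nfe2l2 (chr2:75704614-75704913, minus strand, from base 11). The Gabpa window (chr16:84834874-84835173, plus strand) holds none of the motifs and is shown because it overlaps a window of Atp5j, which encodes a subunit of ATP synthase. It shares 247 bases with that window (chr16:84834927-84835226), whose start on the minus strand is transcribed away from Gabpa. A second Atp5j window, also on the minus strand (chr16:84835576-84835875), shares 0 bases with it.
Esrra: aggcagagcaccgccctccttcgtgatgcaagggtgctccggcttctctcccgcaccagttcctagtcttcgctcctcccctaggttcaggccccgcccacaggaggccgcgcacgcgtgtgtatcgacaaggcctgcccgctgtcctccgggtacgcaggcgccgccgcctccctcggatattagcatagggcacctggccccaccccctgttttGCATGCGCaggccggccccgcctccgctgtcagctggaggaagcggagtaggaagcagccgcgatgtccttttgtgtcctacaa
Ppara: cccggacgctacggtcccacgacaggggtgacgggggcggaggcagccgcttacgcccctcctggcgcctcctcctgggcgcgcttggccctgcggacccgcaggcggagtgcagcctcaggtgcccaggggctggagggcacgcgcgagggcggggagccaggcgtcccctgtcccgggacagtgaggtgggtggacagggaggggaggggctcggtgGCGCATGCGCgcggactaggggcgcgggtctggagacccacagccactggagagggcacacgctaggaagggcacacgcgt
Nfe2l2: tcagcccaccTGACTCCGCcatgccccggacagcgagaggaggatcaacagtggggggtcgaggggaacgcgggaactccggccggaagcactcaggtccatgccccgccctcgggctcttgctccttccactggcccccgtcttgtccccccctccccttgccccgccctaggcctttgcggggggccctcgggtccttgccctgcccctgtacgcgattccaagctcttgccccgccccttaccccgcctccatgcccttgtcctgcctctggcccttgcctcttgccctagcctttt
Gabpa: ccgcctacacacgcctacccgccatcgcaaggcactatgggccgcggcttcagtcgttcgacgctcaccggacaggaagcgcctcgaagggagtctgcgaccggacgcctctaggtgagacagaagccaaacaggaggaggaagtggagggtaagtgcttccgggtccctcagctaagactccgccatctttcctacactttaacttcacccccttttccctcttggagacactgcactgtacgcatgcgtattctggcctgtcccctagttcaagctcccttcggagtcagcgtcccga

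Values are normalized counts, that is, reads per gene over the size factor of the library. A single read was worth 3.87 and 2.55 normalized counts in mitochondrial replicates 1 and 2, but 0.264 and 0.365 in rest replicates 1 and 2, while genes of the mitochondrial chromosome took 97.6% and 93.5% of the total in the mitochondrial fraction, against 63.2% and 67.5% in the rest fraction. A gene seen in 3 reads would thus appear at 11.6 and 7.65 normalized counts in the former and at 0.793 and 1.10 in the latter. Between 5 and 239 reads lay behind each regulator in a mitochondrial library and between 109 and 1941 in a rest library. Intervals given with single values are exact Poisson intervals at 95% and cover counting error only, since PCR copies cannot be recognised. The mitochondrial values are the less precise for every regulator, as the longer bars in the plot of values by library show.

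None of the regulators differed between the fractions at the chosen threshold. With limma on log2(normalized count + 1), 0 of the 10 were higher and 0 lower in the mitochondrial fraction, taking a Benjamini-Hochberg adjusted p-value under 0.05 over the 12150 tested genes, of which 2.16% were higher and 1.39% were lower. At an unadjusted p-value under 0.05, 0 regulators were higher, against 14.1% of all tested genes, and 1, Ppargc1b, was lower, against 16.2%. Both mitochondrial values were above both rest values for 2 regulators, Perm1 and Esrra, against 27.7% of all tested genes. Both were below for 4 regulators, Ppargc1b, Nrf1, Ppargc1a and Gabpa, against 33.4%. The median log2 fold change (mitochondrial minus rest) was -0.32 for the 10 regulators and -0.14 for all tested genes, whose interquartile range reached from -0.74 to 0.49. All folds below are on the log2(normalized count + 1) scale, and a fold change that misses the threshold does not show that the 2 fractions hold equal levels.

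**Figure D1:**
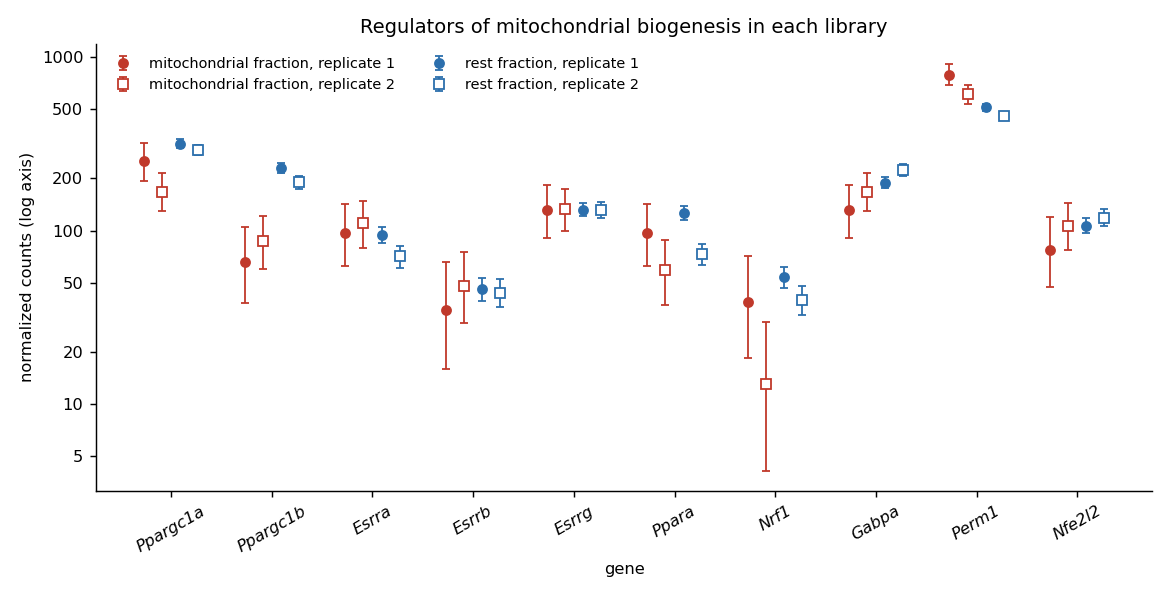
Normalized counts (log axis) of the 10 regulators in each of the 4 libraries, with filled circles for replicate 1, open squares for replicate 2, red for the mitochondrial fraction and blue for the rest fraction. Bars are 95% Poisson intervals for the reads behind each value. Ppargc1b sits at 66 and 87 in the mitochondrial libraries and at 229 and 190 in the rest libraries, Perm1 is the highest regulator in every library, and Esrrg is nearly level at 132 to 133.

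Among the coactivators, Ppargc1b showed the largest difference. Ppargc1b (ENSMUSG00000033871, chr18:61298136-61400431, minus strand, GRCm38), which encodes PGC-1β, a relative of PGC-1α that maintains oxidative genes in heart and brown fat, had 66 and 87 normalized counts in the mitochondrial libraries, against 229 and 190 in the rest libraries. Both mitochondrial values lay well below both rest values, and the counting intervals, up to 105 and 121 in the mitochondrial fraction, but from 214 and 174 upwards in the rest fraction, did not touch. The log2 fold change was -1.45 ± 0.240 (SE, from 2 libraries of each fraction), a level 0.366 times that of the rest fraction. By limma its p was 0.00219 and its adjusted p was 0.0522. This adjusted p-value fell just outside the threshold, and Ppargc1b was placed at percentile 9.96 of all tested genes. It came under the threshold with TMM scaling (adjusted p = 0.0443, beside 316 of 12150 genes lower) and with a pseudocount of 10 (0.0363, beside 580 of 12150). It also did so among genes with a mean above 50 normalized counts (0.0126, beside 670 of 5556) and with scaling to nuclear counts alone, that is, to the total less the mitochondrial chromosome (0.0191, beside 3819 of 12150), all by limma. It stayed above the threshold with recomputed size factors (0.0506), without the filter (0.0537), with a pseudocount of 0.1 (0.0637) and with any 1 library left out (0.0574 to 0.526).

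Ppargc1a (ENSMUSG00000029167, chr5:51454250-51567726, minus strand) encodes PGC-1α, the coactivator induced by cold, fasting and exercise. It had 252 and 168 normalized counts in the mitochondrial libraries, against 318 and 292 in the rest libraries. The fractions did not overlap, but the mitochondrial replicates differed from each other by more than the higher of them differed from the nearer rest value. The log2 fold change was -0.56 ± 0.253 (limma, adjusted p = 0.211). The mitochondrial values stood for about 65 and 66 reads of Ppargc1a and 17 and 34 reads of Ppargc1b. Per library and not divided by exon length, Ppargc1a was 3.82 and 1.93 times Ppargc1b in the mitochondrial fraction, against 1.39 and 1.54 times in the rest fraction. These ratios of normalized counts do not overlap between the fractions. They were 1 of 8 ratios chosen after the values were seen, and no test was made, since an exact permutation test of 2 against 2 libraries cannot give a two-sided p-value below 0.333.

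Perm1 (ENSMUSG00000078486, chr4:156215868-156221307, plus strand) encodes a muscle-specific regulator induced by PGC-1 and ERRs that in turn supports their target genes. It had 794 and 610 normalized counts in the mitochondrial libraries, against 513 and 457 in the rest libraries. Both mitochondrial values were the higher ones, although the lower of them exceeded the higher rest value by less than the mitochondrial replicates differed. The log2 fold change was 0.52 ± 0.204 (limma, adjusted p = 0.170). Perm1 pointed the opposite way from the 2 PGC-1 genes, so the ratio of Perm1 to Ppargc1b was 12.03 and 7.01 in the mitochondrial libraries against 2.24 and 2.41 in the rest libraries. The ratio of Perm1 to Ppargc1a was 3.15 and 3.63 against 1.61 and 1.57. Neither ratio overlapped between the fractions, and both were chosen after the values were seen.

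The direction of Perm1, Esrra and Esrrg depends on what a library is scaled to. With scaling to nuclear counts alone, where the median of all tested genes moved to -0.98, the log2 fold change was -0.34 for Perm1, -0.52 for Esrra and -0.85 for Esrrg. Relative to the median tested gene of the same setting, Perm1 stayed between 0.39 and 0.82 and Esrra between 0.27 and 0.67 in each of the 14 alternatives run. Ppargc1b lay between -1.53 and -1.17 on this relative scale.

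The ERRs are orphan nuclear receptors, active without a known hormone, that bind the same element and recruit PGC-1. Esrra (ENSMUSG00000024955, chr19:6910977-6921840, minus strand), the broadly expressed ERRα, had 97 and 110 normalized counts in the mitochondrial libraries, against 94 and 71 in the rest libraries. The fractions did not overlap, but the lowest mitochondrial value and the highest rest value lay within each other's counting intervals. Its log2 fold change was 0.33 ± 0.243 (limma, adjusted p = 0.398). Esrra shares 73 exon bases with Trmt112 on the opposite strand, which had 23 and 13 normalized counts in the mitochondrial libraries, against 8 and 8 in the rest libraries. Reads lying in several genes were dropped by the authors, and whether strand was used in counting is not stated.

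Esrrg (ENSMUSG00000026610, chr1:187608791-188214885, plus strand), the ERRγ of heart and other highly oxidative tissues, had 132 and 133 normalized counts in the mitochondrial libraries, against 132 and 132 in the rest libraries. These values were far closer to each other than their counting intervals are wide, which reached from 91.2 to 184 and from 99.0 to 174 in the mitochondrial libraries. The log2 fold change was 0.01 ± 0.181 (limma, adjusted p = 0.985). Esrrb (ENSMUSG00000021255, chr12:86361117-86521628, plus strand), the ERRβ best known from embryonic stem cells and placenta, had 35 and 48 normalized counts in the mitochondrial libraries, against 46 and 44 in the rest libraries. Its rest values lay between its mitochondrial values, and the log2 fold change was -0.13 ± 0.285 (limma, adjusted p = 0.780).

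Esrrb was the lowest of the ERR genes in each library. The ratio of Esrrg to Esrrb, 3.77 and 2.77 in the mitochondrial and 2.87 and 3 in the rest libraries, overlapped between the fractions. The ratio of Esrra to Ppargc1b, a receptor to a coactivator it binds, was 1.47 and 1.26 in the mitochondrial and 0.410 and 0.374 in the rest libraries. Esrra thus had more normalized counts than Ppargc1b in both mitochondrial libraries and fewer in both rest libraries.

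Ppara (ENSMUSG00000022383, chr15:85734983-85802819, plus strand) encodes PPARα, a receptor for fatty acids that pairs with RXR and switches on fatty acid oxidation. It had 97 and 59 normalized counts in the mitochondrial libraries, against 126 and 73 in the rest libraries. Replicate 1 was the higher one in both fractions, and the fractions overlapped. Its log2 fold change was -0.34 ± 0.397 (limma, adjusted p = 0.594), with the second largest standard error of the group. Without mitochondrial replicate 2 it was 0.02, and without rest replicate 1 it was 0.05.

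Nrf1 (ENSMUSG00000058440, chr6:30047988-30153458, plus strand), which activates cytochrome c and the factors that copy mitochondrial DNA, had few reads in the mitochondrial libraries. It had 39 and 13 normalized counts in the mitochondrial libraries, against 54 and 40 in the rest libraries. The mitochondrial values stood for about 10 and 5 reads, with intervals from 18.6 to 71.2 and from 4.14 to 29.8 normalized counts. Mitochondrial replicate 1 was within 1 normalized count of rest replicate 2, so that the separation of the fractions rests on mitochondrial replicate 2. The log2 fold change was -1.005 ± 0.579 (limma, adjusted p = 0.305), with values from -1.76 to -0.25 on leaving out single libraries.

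Gabpa (ENSMUSG00000008976, chr16:84834925-84863779, plus strand) encodes the DNA-binding subunit of GABP, an ETS factor of many respiratory chain promoters. It had 132 and 168 normalized counts in the mitochondrial libraries, against 189 and 225 in the rest libraries. The fractions did not overlap, and the replicates of each fraction were 36 normalized counts apart. The log2 fold change was -0.47 ± 0.221 (limma, adjusted p = 0.229). Gabpa shares 397 exon bases with Atp5j, the gene on the opposite strand whose promoter windows are described above. Atp5j had 2343 and 1990 normalized counts in the mitochondrial libraries, against 638 and 599 in the rest libraries, the opposite direction from Gabpa. The ratio of Gabpa to Atp5j was 0.0563 and 0.0844 in the mitochondrial and 0.296 and 0.376 in the rest libraries. Reads in the shared exons may have been lost from either gene, and their part in these values was not tested.

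Nfe2l2 (ENSMUSG00000015839, chr2:75675513-75704641, minus strand) encodes NRF2, which turns on antioxidant genes once released by KEAP1. It had 77 and 107 normalized counts in the mitochondrial libraries, against 107 and 119 in the rest libraries. The value of mitochondrial replicate 2 equalled that of rest replicate 1, and the fractions overlapped at that value. Its log2 fold change was -0.31 ± 0.250 (limma, adjusted p = 0.443).

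**Figure D2:**
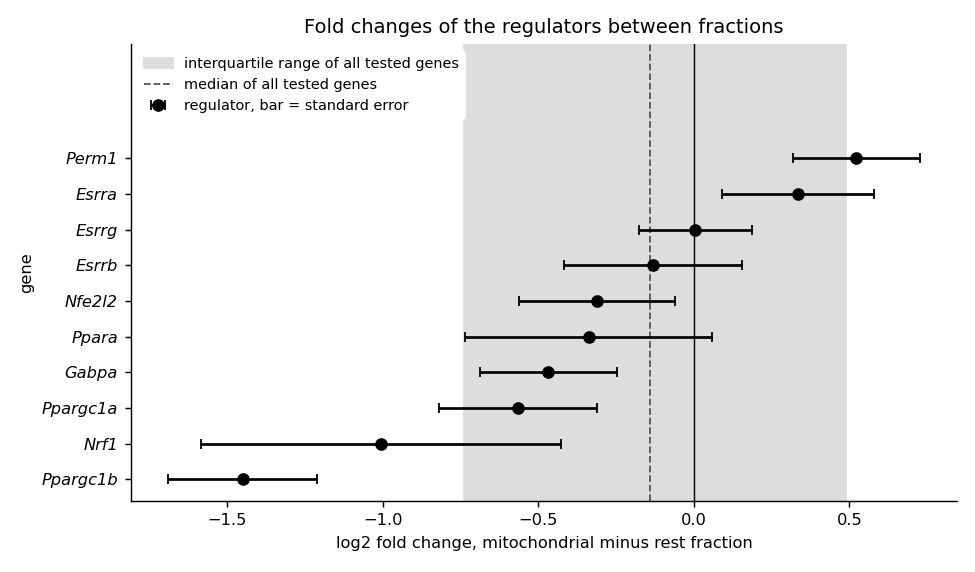
Log2 fold change (mitochondrial minus rest fraction, x axis) of each regulator with its standard error, in order. The grey band is the interquartile range of all 12150 tested genes, from -0.74 to 0.49, and the dashed line their median of -0.14. Ppargc1b at -1.45 and Nrf1 at -1.005 lie left of the band, Perm1 at 0.52 lies right of it, and the other regulators lie inside it.

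Levels of different genes were compared per kilobase of annotated exon. In the rest fraction Perm1 stood first at 124.3 ± 10.2 normalized counts per kilobase (SD, n = 2), followed by Ppargc1b at 52.5 ± 6.91, Ppargc1a at 46.3 ± 2.79 and Gabpa at 36.4 ± 4.48. Nfe2l2 at 29.8 ± 2.24, Ppara at 25.9 ± 9.77, Esrrg at 21.3 and Esrra at 18.8 ± 3.71 came next, and Esrrb at 7.44 ± 0.234 and Nrf1 at 4.57 ± 0.963 closed the order. The 2 PGC-1 genes did not differ beyond their spread, nor did Nfe2l2 and Ppara, Ppara and Esrrg, or Esrrg and Esrra.

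In the mitochondrial fraction Perm1 was again first, at 180.0 ± 33.4 normalized counts per kilobase (SD, n = 2), and Ppargc1a second, at 31.9 ± 9.01. Ppargc1b moved from the second place in the rest fraction to the place of rank 8, at 19.2 ± 3.72. The levels from Ppargc1a to Ppargc1b spanned less than 2-fold, and only Esrra and Esrrg among these neighbours had ranges that did not overlap. Esrrb at 6.86 ± 1.52 and Nrf1 at 2.53 ± 1.79 were the lowest in this fraction too. With the longest annotated transcript as the length instead, 7 of the 10 regulators changed rank in the rest fraction. In the mitochondrial fraction Esrra at 41.6 and Nfe2l2 at 37.2 then stood above Ppargc1a at 32.5. Nrf1, which has 20 annotated transcripts, reached 11.6 normalized counts per kilobase in the rest fraction by this length and passed Esrrb at 10.5.

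**Figure D3:**
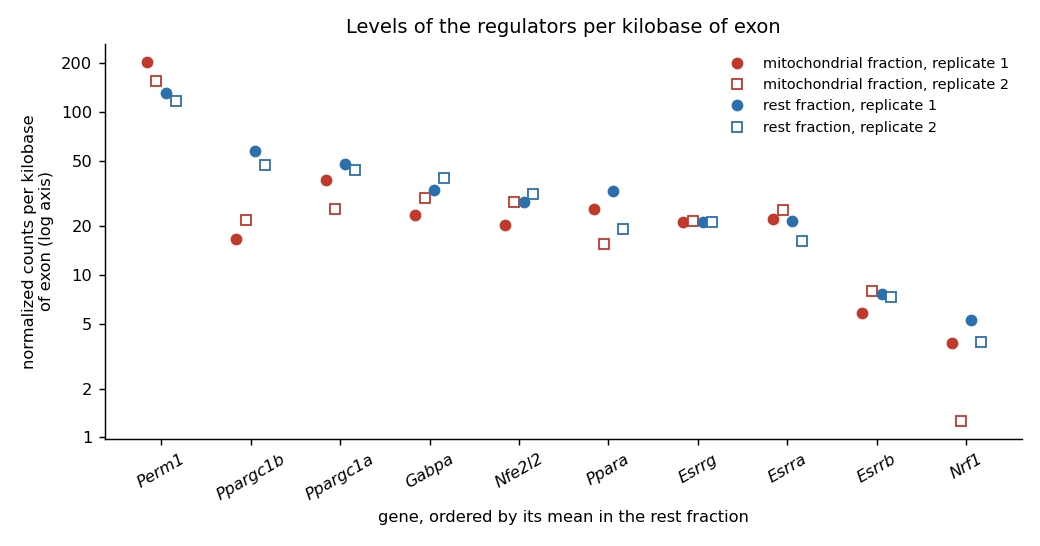
Normalized counts per kilobase of exon (log axis) of each regulator in each library, ordered by the mean of the rest fraction, with filled circles for replicate 1, open squares for replicate 2, red for the mitochondrial and blue for the rest fraction. Perm1 lies above 117 in every library, and the red points of Ppargc1b, up to 21.8, lie below its blue points, which start at 47.6.

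Exon length moved with the fold change across the transcriptome. For the 10611 tested protein-coding genes of the nuclear genome, cut into 4 length bins of about equal size, the median log2 fold change was 0.48 in the bin with the shortest exons and -0.06, -0.30 and -0.53 in the following bins. None of the regulators was in the shortest bin, 5 were in the second, 4 in the third and 1, Nrf1, in the longest. Within the second bin, whose interquartile range reached from -0.55 to 0.41, Ppargc1b at -1.45 lay below and Perm1 at 0.52 lay above this range, while Esrra, Ppara and Nfe2l2 lay inside it. Ppargc1a, Gabpa, Esrrb and Esrrg lay inside the range of the third bin, from -0.75 to 0.17, and Nrf1 lay below that of the longest, which began at -0.95. Spearman's rho between exon length and log2 fold change was -0.43 across the 10611 genes and -0.28 across the 10 regulators, as a description across genes, which are not independent replicates. The part of exon length in the fold changes of the regulators was not tested.

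**Figure D4:**
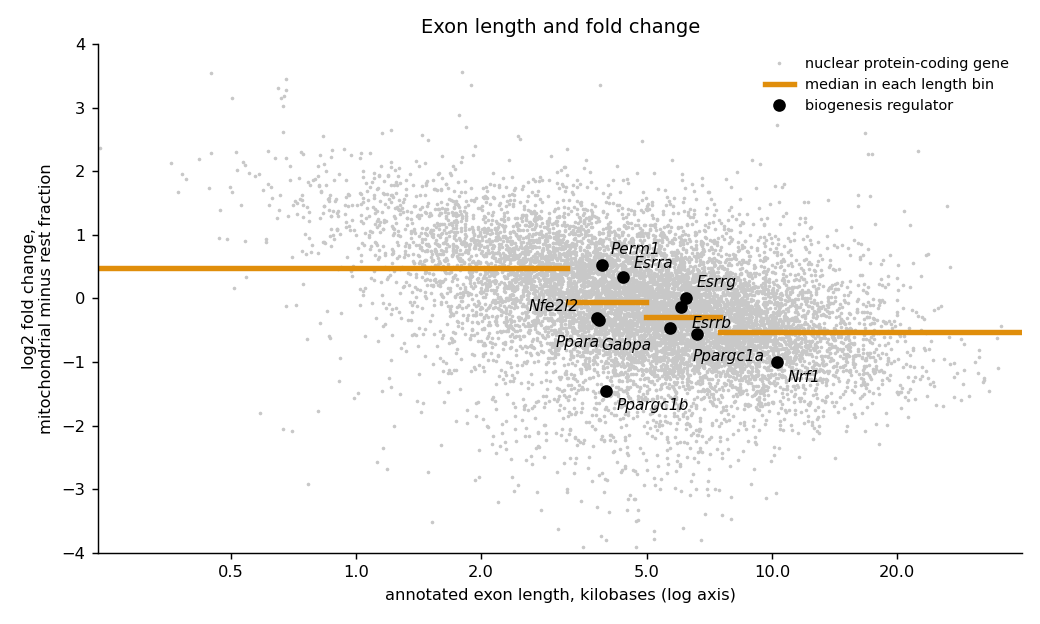
Log2 fold change against annotated exon length (log axis) for tested protein-coding nuclear genes (grey), with the median of each length bin (orange) and the 10 regulators (black). 10 genes lie outside the axes. Perm1 and Ppargc1b have similar lengths, near 4 kilobases, and lie at 0.52 and -1.45.

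The partner factors of the regulators, such as the RXR receptors that pair with PPARα, the second subunits of GABP and the MEF2 and CREB factors upstream of Ppargc1a, showed no called gene. Of 20 tested, 0 were higher and 0 were lower by limma (adjusted p under 0.05). At unadjusted p under 0.05 1 was higher and 4 were lower, against 14.1% and 16.2% of all tested genes. The median log2 fold change of the list was -0.36. With scaling to nuclear counts alone, 10 of 20 were called lower, beside 3819 of 12150 genes. With a mean above 50, 1 of 15 was called lower, beside 670 of 5556 genes. Rxrg, the RXR gene typical of muscle, had the largest value, with 97 and 79 normalized counts in the mitochondrial fraction, against 56 and 55 in the rest fraction (log2 fold change 0.65 ± 0.231, limma adjusted p = 0.150). Pparg, the adipogenic PPAR, came next at 0.05. Hcfc1, a chromatin-bound cofactor of GABP, was the most negative with 108 and 66 against 266 and 200 (log2 fold change -1.44 ± 0.320, limma adjusted p = 0.0685), and Foxo1, a factor restrained by insulin, followed at -1.07.

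The cofactors and upstream kinases, which modify or dock onto PGC-1 and the nuclear receptors, lay below 0 in 15 of 16 cases. By limma 0 of 16 were called in either direction (adjusted p under 0.05). At unadjusted p under 0.05 10 were lower and 0 higher, against 16.2% and 14.1% of all tested genes. Both mitochondrial values were below both rest values for 13 of 16, against 33.4%. The median log2 fold change of the list was -0.72 beside -0.14 for all tested genes. Its median exon length was 8272.5 bases beside 5037 for the 10 regulators. The longest length bin described above, from 7498 bases, had a median log2 fold change of -0.53. Relative to the median tested gene, the list lay at -0.74 to -0.46 in the alternatives run, and between 0 and 16 of its genes were called lower, the most with both scalings whose total includes the mitochondrial chromosome. The part of exon length in this was not tested. Ep300, an acetyltransferase that works with PGC-1α, had 182 and 151 normalized counts in the mitochondrial fraction, against 377 and 363 in the rest fraction (log2 fold change -1.15 ± 0.186, limma adjusted p = 0.0511). Nrip1, a corepressor of oxidative genes, followed at -1.11. Hdac3, a deacetylase of the corepressor complex, was the only one above 0, at 0.07, and Smyd1, a muscle methyltransferase upstream of Perm1 and Ppargc1a, was next at -0.06.

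Most target genes had positive fold changes. Of 18 genes known as targets of ERRs, NRF1 or GABP, 3 were higher and 0 lower by limma (adjusted p under 0.05). The shares of all tested genes were 2.16% and 1.39%. The 3 genes were Cox5b and Cox4i1, subunits of cytochrome c oxidase, and Cycs, cytochrome c, each with an adjusted p-value of 0.0427. At unadjusted p under 0.05, 10 of the 18 were higher and 2 lower, against 14.1% and 16.2% of all tested genes. Cox5b had 2041 and 1398 normalized counts in the mitochondrial libraries, against 449 and 409 in the rest libraries, a log2 fold change of 1.98 ± 0.238. Cycs had 1452 and 1043 against 355 and 375 (1.75 ± 0.219), and Cox4i1 had 2912 and 2056 against 742 and 745 (1.72 ± 0.224). For each of these 3 genes the lower mitochondrial value exceeded the higher rest value, as it did for 27.7% of all tested genes. The 3 calls held with TMM scaling and a pseudocount of 10 and were lost with a pseudocount of 0.1 (limma adjusted p = 0.0543 to 0.0555). With any 1 of the 4 libraries left out limma called 0 genes of the whole table in either direction, and with scaling to nuclear counts alone the 3 fold changes were 0.85 to 1.11 with adjusted p-values of 0.0578 to 0.0986.

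The list as a whole had 14 genes above 0 and a median log2 fold change of 0.67, with a median exon length of 3923 bases. Not all targets shared this direction. Vegfa, a secreted growth factor under PGC-1α and ERRα, had 256 and 224 normalized counts in the mitochondrial fraction, against 531 and 451 in the rest fraction (log2 fold change -1.03 ± 0.186, limma adjusted p = 0.0562). Polrmt, the RNA polymerase of mitochondria, was at -0.96 (limma adjusted p = 0.137). Relative to the median tested gene, the median of the list stayed between 0.63 and 0.92 higher in each alternative run, although it turned to -0.19 with scaling to nuclear counts alone, to -3.30 with the library total and to -3.80 with the mitochondrial chromosome total. Cox5b and Cox4i1, with 1587 and 1550 exon bases, fell in the shortest length bin described above. That bin had a median log2 fold change of 0.48 and an upper quartile of 0.99. Cycs, with 3404 exon bases, fell in the second bin. The part of exon length in this list was not tested.

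Of 17 tested PPAR targets 1 was higher and 0 were lower by limma (adjusted p under 0.05), against 2.16% and 1.39% of all tested genes. At unadjusted p under 0.05, 5 were higher and 0 lower, against 14.1% and 16.2% of all tested genes. Fabp3, the fatty acid carrier of heart cytosol, had 7332 and 6145 normalized counts in the mitochondrial libraries, against 2291 and 1954 in the rest libraries (log2 fold change 1.67 ± 0.204, adjusted p = 0.0427). Acot1, a cytosolic thioesterase induced by PPARα, had 58 and 64 against 27 and 20 (log2 fold change 1.35 ± 0.293, limma adjusted p = 0.0669). For Fabp3 the call was lost with any 1 library left out and with scaling to nuclear counts alone (log2 fold change 0.80, limma adjusted p = 0.109). Cpt1b, the carnitine palmitoyltransferase of muscle mitochondria, had 0 and 8 normalized counts in the mitochondrial fraction, against 10 and 16 in the rest fraction, where the mitochondrial values lie near the level of 3 reads, and it shares 2744 exon bases with an overlapping gene on the same strand. Ucp2, an uncoupling protein homologue, was at -0.67. The median of the list was 0.20, but -0.66 with scaling to nuclear counts alone (0 higher and 2 lower), and -3.75 and -4.28 with the library total and the mitochondrial chromosome total. Relative to the median tested gene of the same setting, it stayed between 0.15 and 0.59 higher in each alternative run. Fabp3, with 823 exon bases, fell in the shortest length bin, whose median log2 fold change was 0.48 and upper quartile 0.99. The part of exon length in the PPAR list was not tested. Angptl4 did not pass the filter on low values.

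Nfe2l2's partners and targets had no called gene among 14 tested, that is, 0 higher and 0 lower by limma (adjusted p under 0.05). At unadjusted p under 0.05 2 were higher and 1 lower, against 14.1% and 16.2% of all tested genes. Nqo1, a quinone reductase and standard readout of NRF2, had 62 and 56 normalized counts in the mitochondrial fraction, against 35 and 29 in the rest fraction (log2 fold change 0.87 ± 0.262, limma adjusted p = 0.115). Mafk, a small MAF protein that pairs with NRF2, was at 0.62, while its relative Mafg was at -0.87 and Gclc, of glutathione synthesis, at -0.52. The median was 0.15, but -0.69 with scaling to nuclear counts alone (0 higher and 1 lower). Relative to the median tested gene of that setting, it was 0.29 higher. Hmox1 and Slc7a11 did not pass the filter.

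**Figure D5:**
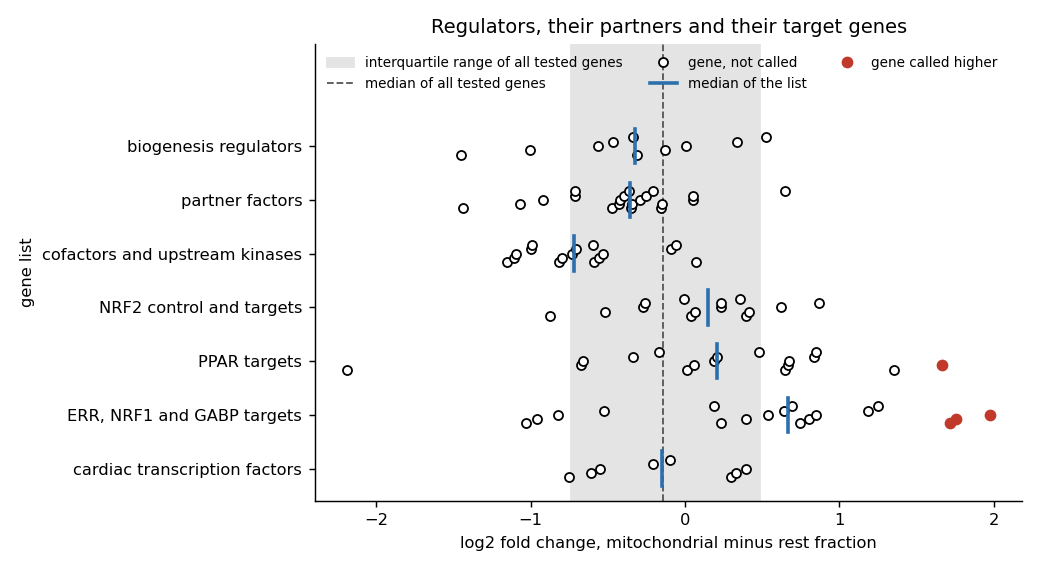
Log2 fold change (mitochondrial minus rest fraction) of each tested gene of the regulators, their partners, cofactors and target lists, and of cardiac transcription factors. Blue lines are list medians, red points are genes called higher, and the grey band is the interquartile range of all tested genes. The target list of ERRs, NRF1 and GABP has its median at 0.67 and 3 called genes, and the cofactors have theirs at -0.72 with none called.

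Of the markers of cell types and compartments, only the smooth muscle gene Myh11 was called by limma (adjusted p under 0.05). Of the 6 cardiomyocyte markers 0 were called, and their median log2 fold change was 0.74, with Tnnt2 at 1.88, Tnni3 at 1.58, Myh6 at -0.20 and Ryr2 at -1.35. With TMM scaling, a pseudocount of 10 or a mean above 50, 2 of the 6 were called higher. With a mean above 50, 1 was also called lower. With scaling to nuclear counts alone their median was -0.13, with 0 called higher and 1 lower. The summed normalized counts of these markers were 263874 and 195749 in the mitochondrial and 231973 and 204273 in the rest libraries, so that cardiomyocyte RNA was present in every library. Myh6 alone had 174838 and 128576 against 184487 and 161461. Such sums depend on the scaling and do not give the share of cardiomyocyte RNA in a library. The 4 endothelial markers summed to 1453 and 1247 against 2383 and 2219, with none called, and the 4 fibroblast markers to 5659 and 2415 against 1521 and 2094, also with none called.

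Of 2 smooth muscle markers analysed, 1, Myh11, was called lower (log2 fold change -3.40, limma adjusted p = 0.0427), and their sums were 43 and 79 against 390 and 842. The 4 blood cell markers summed to 101 and 234 against 511 and 293, but 1 of them had a positive log2 fold change and 3 a negative one. The fat marker Cidea had 23 and 31 against 9 and 10, while Ucp1, Adipoq and Plin1, listed with it, were absent from the deposited table. None of these blood and fat markers was called. The 4 nuclear RNAs, Malat1, Neat1, Kcnq1ot1 and Meg3, summed to 13656 and 8745 in the mitochondrial and 42966 and 45512 in the rest libraries. By limma 0 of 4 were called, and 3 of 4 were lower at unadjusted p under 0.05 (16.2% of all tested genes). With TMM scaling, a pseudocount of 10 or a mean above 50, 3 of them were called lower, and their most negative log2 fold change was -4.06, for Kcnq1ot1. The part of nuclear RNA or of other cell types in the values of the regulators was not tested, and in bulk libraries fewer cells of a type and less RNA per cell cannot be told apart.

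For the 3 regulators with the highest mean normalized count, the tested genes with the most similar course over the 4 libraries were found by the Euclidean distance of log2 values centred on each gene's mean. Those nearest to Perm1 were Dcun1d2, at a distance of 0.032, with 159 and 120 normalized counts in the mitochondrial fraction, against 104 and 91 in the rest fraction, and Rnf181, at 0.033. Ppargc1a was closest to Aoc3, at 0.022, with 27 and 18 against 35 and 32, and to Brwd1, at 0.038. Gabpa was closest to Usp3, at 0.025, with 46 and 59 against 65 and 79, and to Stag2, at 0.047. Over 4 libraries and 12150 genes such neighbours describe a shape and nothing more.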

How the data were processed

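Total RNA from the mitochondrial and rest fractions of WT mouse hearts was sequenced in 4 libraries, 2 of each fraction. Per the submitters' processing notes, the authors used Trimmomatic 0.39, STAR 2.7.10a on mm10, featureCounts 2.0.2 and DESeq2 1.30.1. The deposited score for each gene and library is a count of reads over the library's size factor, rounded to whole numbers, so that counts could not be restored and no count test was run. Reads counted on genes in each library, about 47400000, 32100000, 26300000 and 23500000, were estimated from the spacing of the values.

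The 12150 genes reaching 10 normalized counts in 2 or more libraries were tested with limma 3.58.1 (R 4.3.3; trend) on log2(value + 1), with Benjamini-Hochberg adjustment over them. Procedures were tested on simulated data. Alternatives covered the scaling, the filter, the pseudocount, a replicate block and each library left out. Exon lengths and overlaps came from GENCODE M21, whose position equalled that of 15612 of 15746 genes, and promoters from RefSeq. Python 3.11.15 was used. A planned comparison of protein sequences was not run.

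The members and the gene lists were chosen with earlier results of these data known. The text names all 10 regulators, from each list at most 4 genes (the 2 largest and the 2 most negative log2 fold changes; none of the endothelial, fibroblast and blood cell markers), and 2 nearest genes for the 3 most abundant regulators. Cox4i1 was named after its values were seen, and Atp5j and Trmt112 for their overlap.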

Additional observations from a re-analysis of the deposited data

How the results depend on the processing

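Ppargc1b lay below 0, and below the median tested gene, in each of the 14 alternatives, and so did Ppargc1a, Nrf1, Gabpa and Nfe2l2 (Nrf1 in 13, since it and Esrrb have a mean under 50 normalized counts). Not all of these alternatives could change a sign. The replicate block, the setting without the filter and a mean above 50 leave each log2 fold change as it was. With the library total and the mitochondrial chromosome total, 12022 and 12076 of 12150 genes were called lower. The number of genes higher and lower was 443 and 316 with TMM scaling, 790 and 670 among genes with a mean above 50, 0 and 0 with a pseudocount of 0.1, 536 and 580 with a pseudocount of 10, and 630 lower without the filter. In each of TMM scaling, a mean above 50 and a pseudocount of 10, 1 regulator, Ppargc1b, was called lower. Scaling moved the median of all tested genes to -3.93 with the library total, -0.98 with the total without the mitochondrial chromosome and -4.43 with the mitochondrial chromosome total. The calls higher and lower were then 2 and 12022, 129 and 3819, and 2 and 12076, with 10, 4 and 10 regulators lower. In the same order the log2 fold change reversed to -3.59, -0.52 and -4.13 for Esrra, to -3.94, -0.85 and -4.48 for Esrrg and to -3.46, -0.34 and -4.003 for Perm1.

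The labels share replicate numbers between the fractions, but nothing says that a number marks the same heart. The replicate differences of the fractions correlated across 12150 genes with Pearson's r = 0.130, over 2 pairs. With the replicate block, 470 genes were higher and 309 lower, and 1 regulator, Ppargc1b, was lower (adjusted p = 0.0454). With a library left out, the remaining one of its fraction is assumed to vary like the other fraction, and the number of genes higher and lower ranged from 0 to 0. Esrrb then ranged from -0.35 to 0.091, reversing without mitochondrial replicate 1, and Ppara from -0.73 to 0.051, reversing without mitochondrial replicate 2 (0.016) and rest replicate 1. Ppargc1b ranged from -1.65 to -1.25 and Perm1 from 0.33 to 0.71. The order per kilobase changed for 7 regulators with the longest transcript as length. Where not stated, the cause of a change was not tested. Depth limits the mitochondrial values of Nrf1 and Esrrb most, with 5 to 19 reads.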

Other observations

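The cardiac transcription factors, which set heart muscle identity rather than the mitochondrial programme, had no called gene either. Of 8 tested, 0 were higher and 0 lower by limma at an adjusted p-value under 0.05, and their median log2 fold change was -0.15. At an unadjusted p-value under 0.05, 2 were lower and 0 higher, against 16.2% and 14.1% of all tested genes. Hand2 was the highest, with 112 and 89 normalized counts in the mitochondrial fraction, against 82 and 70 in the rest fraction (log2 fold change 0.39 ± 0.237), followed by Nkx2-5 at 0.33. Gata6 was the lowest, with 74 and 92 against 145 and 134 (log2 fold change -0.75 ± 0.218, limma adjusted p = 0.107), followed by Tbx20 at -0.61. Both mitochondrial values were below both rest values for 4 of the 8, Gata6 and Tbx20 among them, against 33.4% of all tested genes. Both were above for 2 of the 8, against 27.7%.

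As a share of all counts from nuclear genes, the most abundant regulator, Perm1, took 0.0178% and 0.0115% in the mitochondrial fraction, against 0.0200% and 0.0164% in the rest fraction, which overlap. Ppargc1b took 0.00148% and 0.00164% against 0.00895% and 0.00681%, which do not. Esrrg, level on the deposited scale, took 0.00296% and 0.00251% against 0.00516% and 0.00473% on this one.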
